A study of Mus musculus with 2 samples.

Results

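The 10 heat shock chaperone genes of the cytosol and the mitochondrion described here were followed through digital gene expression (DGE) tag profiles of the mouse cell lines GC-1spg and GC-2spd (ts), the latter written GC-2spd below: *Hspa1a*, *Hspa1b*, *Hspa8*, *Hsp90aa1*, *Hsp90ab1*, *Hsph1*, *Dnajb1*, *Hspb1*, *Hspb8* and *Hspd1*. These are 10 of 14450 genes with an unambiguous sense tag. They were selected on the tag counts of both libraries, which were known when the list was made, so their counts are a description and carry no test. GC-1spg was derived from type B spermatogonia of a mouse 10 days old by transformation with pSV3-neo. GC-2spd (ts) was derived from spermatocytes of a mouse 6 weeks old and transformed with the SV40 large T antigen, and its label places it at a premeiotic arrest. Both lines grew in DMEM with 10% serum and sodium bicarbonate, no heat treatment is named in the labels, and the temperature of culture was not stated there or in the methods of the study. Each line is represented by 1 library, so cell line and library cannot be told apart, and the 95% intervals below cover counting error only.

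In DGE, *Nla*III cuts cDNA at CATG and a tag of 21 bases, CATG and the 17 bases after it, is released towards the 3′ end. One transcript gives 1 tag in principle, so tag counts were compared between genes without division by length. Each level is given as copies and as tags per 1000000 clean tags (TPM), and each ratio is GC-2spd over GC-1spg. The libraries held 5072149 clean tags for GC-1spg and 4726808 for GC-2spd, where 1 copy is worth 0.197 and 0.212 TPM, and single copy tags had been removed. A gene was counted as higher or lower where the TPM ratio was at least 2 or at most 0.5, among the 10243 genes with at least 20 unambiguous sense tags over both libraries. Of those genes, 1958 were higher (19.1%) and 1315 were lower (12.8%), with a median log2 ratio of 0.19. Higher genes made up 59.8% of the calls on this scale and 49.3% after TMM scaling, which subtracts 0.17 from each log2 ratio.

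Heat shock proteins are chaperones that bind unfolded polypeptides. Hsp70 proteins hold and release a client in a cycle of ATP hydrolysis, which J domain proteins start and nucleotide exchange factors reset, and they pass clients on to the Hsp90 proteins. Small heat shock proteins hold clients without ATP, and Hsp60 folds proteins inside a closed chamber in the mitochondrial matrix. Heat shock factors induce many of these genes by binding inverted repeats of GAA in their promoters. The testis uses its own forms of several of them, among them *Hspa1l* and the meiotic *Hspa2*.

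The tags that carry most of the copies of each gene are shown first, since all of the values below rest on them. Capitals mark the CATG at which the cDNA was cut. Places are in the genome build GRCm38 and annotations are those of GENCODE release M21.
*Hspa1a*: CATGtgttcagtttttacaca
*Hspa1b*: CATGtctacactgccaccctg
*Hspa1a* and *Hspa1b* together: CATGgtgctgacgaagatgaa
*Hspa8*: CATGgaataataaaactattt
*Hsp90aa1*: CATGtattagtcttagaagta
*Hsp90ab1*: CATGtctacaagaatcttcta
*Hsph1*: CATGtgatcattgtgaacacc
*Dnajb1*, main tag: CATGccttgttcctcctcccc
*Dnajb1*, second tag: CATGaccttcgggtctccctt
*Hspb1*: CATGgctacatctctcggtgc
*Hspb8*: CATGgctctcaaaccatcacc
*Hspd1*, main tag: CATGagagttcagaagcagcc
*Hspd1*, second tag: CATGcctacagataatttatt

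Most of these tags lay in the last exon. The main tag of *Hspa1a* is at chr17:34969423-34969443 and that of *Hspa1b* at chr17:34956514-34956534, both on the minus strand in the 3′ UTR of a gene with 1 exon. The tag that both genes hold lies in their coding sequence, at chr17:34971543-34971563 in *Hspa1a* and at chr17:34958625-34958645 in *Hspa1b*. The *Hspa8* tag (chr9:40805168-40805188, plus strand) starts in exon 9, and it ends 12 bases before the annotated end of the transcript. The *Hsp90aa1* tag (chr12:110691199-110691219) and the *Hsp90ab1* tag (chr17:45567914-45567934) are in the 3′ UTR in exon 11 of their genes, both on the minus strand. *Hsph1* was counted mainly through exon 18 in its 3′ UTR (chr5:149616887-149616907, minus strand). The main *Dnajb1* tag is in the 3′ UTR in exon 3 (chr8:83611219-83611239) and the second in the coding sequence of exon 2 (chr8:83610098-83610118), both on the plus strand. For *Hspb1* the tag is in the coding sequence of exon 2 (chr5:135889075-135889095, plus strand), and for *Hspb8* in the 3′ UTR in exon 3 (chr5:116408772-116408792, minus strand). Both *Hspd1* tags are in the 3′ UTR in exon 12, at chr1:55077925-55077945 and chr1:55078084-55078104, on the minus strand.

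Of the 10 genes, 7 had at least 20 unambiguous sense tags over both libraries. Among these, *Hspa1b*, *Hsph1* and *Dnajb1* were at least 2-fold higher in GC-2spd (3 genes, beside 19.1% of all genes tested), *Hspd1* was at least 2-fold lower (1 gene, beside 12.8%), and *Hsp90aa1*, *Hsp90ab1* and *Hspb8* lay between. Because the genes were chosen with these counts known, nothing is read from the difference between their count and the share of all genes. *Hspa1a*, *Hspa8* and *Hspb1* were under the minimum. The main tags of *Hspa8* and *Hspb1* also fit other genes, and these shared tags are given apart. Together the unambiguous sense tags of the 10 genes added up to 21576 in GC-1spg, or 0.425% of the clean tags (95% Clopper-Pearson interval 0.420 to 0.431), and to 17431 in GC-2spd, or 0.369% (0.363 to 0.374). With every shared sense tag included, the sums were 43018 and 38118 copies, 0.848% and 0.806% of the libraries.

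**Figure D1:**
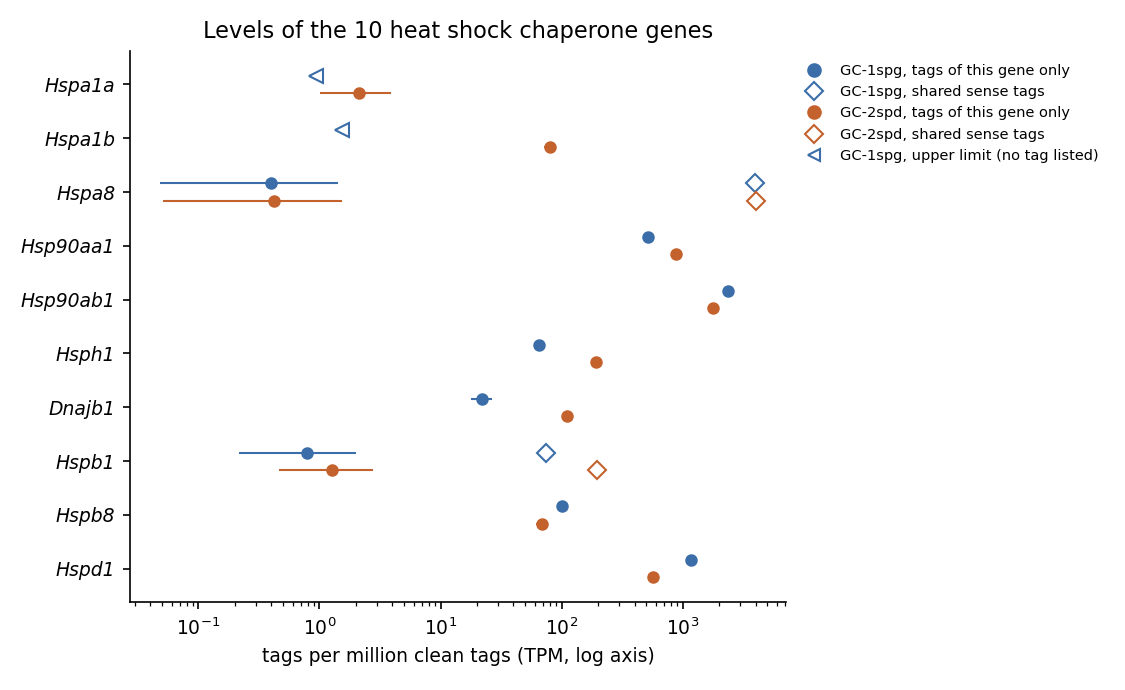
Level of each gene in TPM on a log axis, for GC-1spg (blue) and GC-2spd (orange), with exact Poisson 95% intervals as bars where wider than the symbol. Filled points are tags of 1 gene only, open diamonds are the main class of shared sense tags of *Hspa8* and *Hspb1*, and open triangles are upper limits where GC-1spg lists no tag. *Hsp90ab1* stands at 2384 and 1773 TPM, and the shared *Hspa8* tags stand at 3986 and 4058 TPM.

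*Hspa1a* and *Hspa1b* encode the same inducible Hsp70, which most unstressed cells hold at low levels. GC-1spg listed no sense tag of either gene. In GC-2spd *Hspa1b* had 378 copies, 80.0 TPM (95% Poisson interval 72.1 to 88.5), which placed it at rank 1694 among the genes of that library. Up to 1 copy of each of its 3 tags could have been removed from GC-1spg as a single copy, so the ratio is a bound. By this bound *Hspa1b* was at least 52.3-fold higher in GC-2spd. The bound, like that of *Hspa1a* below, takes the copies in GC-2spd as counted, without their own counting error. The 3 tags had 336, 37 and 5 copies there and all 3 were unlisted in GC-1spg. In such bulk libraries, fewer cells with the RNA and less RNA per cell cannot be told apart. *Hspa1a* had 10 copies in GC-2spd, 2.12 TPM, which is at least 2.26-fold higher but rests on fewer than 20 tags. *Hspa1b* therefore supplied 97.4% (95.3 to 98.8) of the tags that tell the pair apart. The tag that fits only these 2 genes had 0 and 9 copies, and a further tag that fits both of them and also the antisense strand of *Gm20481* had 0 and 2. *Gm20481*, a gene on the other strand that overlaps *Hspa1a* by 2225 bases, had no unambiguous tag in either library.

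*Hspa8* encodes Hsc70, the Hsp70 that cells make constantly. Its main tag had 20033 copies in GC-1spg against 19027 in GC-2spd, 3950 and 4025 TPM, which made it tag number 12 and tag number 8 of the libraries. The log2 ratio was 0.03 (-0.00 to 0.06), so the line that lists *Hspa1b* and the line that does not had nearly the same level of this tag. This tag was left out of the unambiguous counts because it also fits the antisense strand of the lincRNA *Gm26825* on chromosome 5. *Gm26825* lies across *Gm15459*, a processed pseudogene on the opposite strand. Of its 10 sense tags only 1 fits no other gene on either strand, and that tag was not listed in either library. A tag on its sense strand that also fits the antisense strand of *Hspa8* had 730 and 390 copies. All sense tags of *Hspa8* that otherwise fit only the antisense strand of another gene, the main tag included, gave 20219 and 19182 copies. Tags from the coding sequence that also fit pseudogenes gave 425 and 267 copies, 83.8 and 56.5 TPM, with a log2 ratio of -0.57 (-0.80 to -0.34). Only 2 copies in each library were unambiguous.

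The Hsp90 proteins mature kinases, steroid receptors and other signalling proteins, with *Hsp90aa1* as the inducible and *Hsp90ab1* as the constitutive gene. *Hsp90aa1* had 2617 copies in GC-1spg against 4189 in GC-2spd, 516 (496 to 536) and 886 (860 to 913) TPM. It was 1.72-fold higher in GC-2spd (log2 0.78, 0.71 to 0.85) and went from rank 111 to rank 49 of all genes. *Hsp90ab1* had 12092 and 8382 copies, 2384 (2342 to 2427) and 1773 (1736 to 1812) TPM. Its ratio was 0.744, a log2 ratio of -0.43 (-0.47 to -0.39), and it stayed among the most abundant genes at ranks 11 and 14. The 2 genes thus differed in opposite directions, neither by 2-fold. *Hsp90aa1* made up 17.8% (17.2 to 18.4) of the tags of the pair in GC-1spg and 33.3% (32.5 to 34.2) in GC-2spd. Tags that also fit pseudogenes added 156 and 132 copies to *Hsp90aa1* and 93 and 65 to *Hsp90ab1*.

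*Hsph1* encodes Hsp105, a member of the Hsp110 group that resets Hsp70 by nucleotide exchange. It had 332 copies in GC-1spg against 914 in GC-2spd, 65.5 (58.6 to 72.9) and 193 (181 to 206) TPM. The gene was 2.95-fold higher in GC-2spd, with a log2 ratio of 1.56 (1.38 to 1.75). All 8 of its exactly matching sense tags were higher in GC-2spd. The constitutive Hsp110 gene *Hspa4* had 1831 and 1714 copies, 361 and 363 TPM, so the share of *Hsph1* in the tags of these 2 genes was 15.3% (13.9 to 16.9) in GC-1spg and 34.8% (33.0 to 36.6) in GC-2spd. When only the longest transcript of each gene was used, *Hsph1* kept 3 and 14 copies and fell under the minimum.

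*Dnajb1* encodes Hsp40, the J domain protein that works with inducible Hsp70. It had 111 copies in GC-1spg against 520 in GC-2spd, 21.9 (18.0 to 26.4) and 110 (101 to 120) TPM. After *Hspa1b* this was the largest ratio among the 7 genes, 5.03-fold higher in GC-2spd (log2 2.33, 2.03 to 2.64). All 8 of its sense tags were higher in GC-2spd. *Dnaja1*, a J domain protein of the other main class, had 703 and 668 copies, and *Dnajb1* made up 13.6% (11.4 to 16.2) of the tags of the pair in GC-1spg and 43.8% (40.9 to 46.6) in GC-2spd. The values of *Dnajb1* depend on its upstream tags, because the CATG nearest to the annotated 3′ end gave 2 and 5 copies. *Tecr*, an enzyme of fatty acid elongation whose 5′ end lies 221 bases from that of *Dnajb1* on the other strand, had 340 and 955 TPM and a log2 ratio of 1.49 (1.41 to 1.57). Near *Hsp90ab1* (log2 -0.43), *Slc35b2* at 103 bases had a log2 ratio of 1.45 (1.19 to 1.72) and *Nfkbie* at 4605 bases -2.55 (-3.12 to -2.01). *1110038B12Rik*, 3964 bases from *Hspa1b*, had -0.09 (-0.16 to -0.02). *Tecr* and these genes were looked at after their values were known, and a link between neighbours was not tested.

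**Figure D2:**
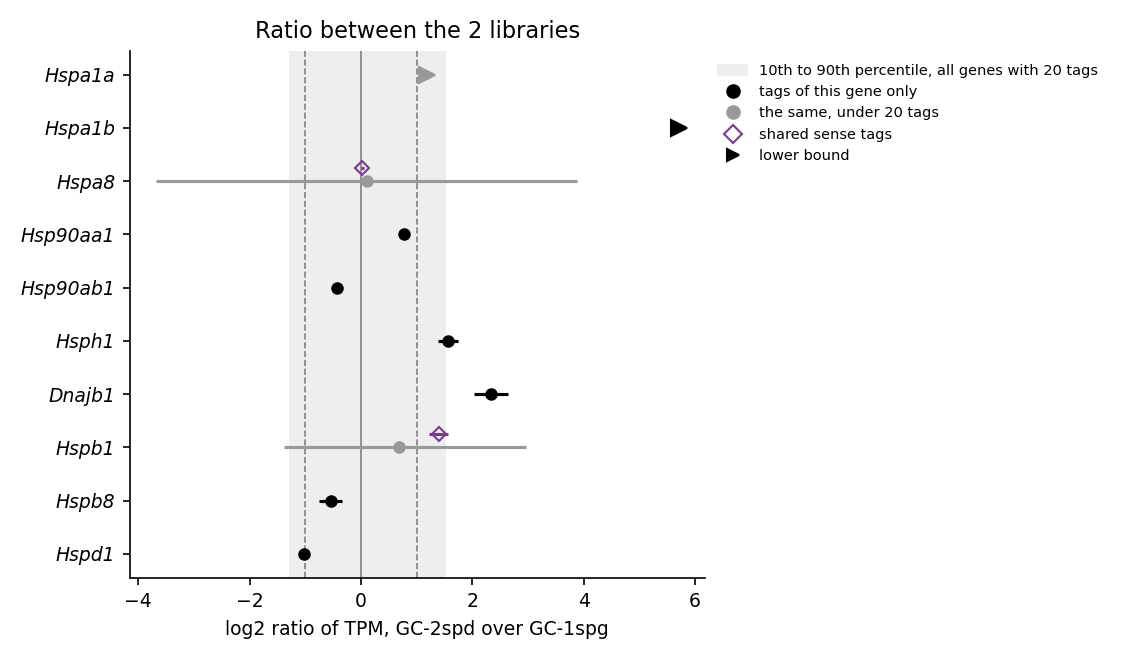
The log2 ratio of TPM, GC-2spd over GC-1spg, for each gene, with exact conditional binomial 95% intervals. Black points have at least 20 tags, grey symbols fewer, open diamonds are shared sense tags, triangles are lower bounds, dashed lines mark a 2-fold difference and the shaded band runs from the 10th to the 90th percentile of all genes with at least 20 tags (-1.27 to 1.50). *Hspa1b*, *Hsph1* and *Dnajb1* lie to the right of the band, and *Hspd1* lies at -1.03, next to the 2-fold line.

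The small heat shock proteins *Hspb1* and *Hspb8* differed in direction. *Hspb1* encodes Hsp25, which also acts on actin filaments, and only 4 and 6 copies were unambiguous. Its main tag had 374 copies in GC-1spg against 907 in GC-2spd, 73.7 (66.5 to 81.6) and 192 (180 to 205) TPM, with a log2 ratio of 1.38 (1.20 to 1.56). The same tag fits the pseudogene *Hsp25-ps1* and the antisense strand of *Gm9817*, which overlap each other on chromosome 13. *Gm9817* has 11 sense tags that fit no other gene on either strand and *Hsp25-ps1* has none, and no copy of those 11 was listed in either library. When pseudogenes were left out and sense matches were preferred, an alternative added after seeing the data, *Hspb1* passed the minimum and the number of genes at least 2-fold higher became 4. *Hspb8*, which works with the exchange factor *Bag3* in the removal of misfolded proteins, had 506 and 324 copies, 99.8 (91.3 to 109) and 68.5 (61.3 to 76.4) TPM. It was lower in GC-2spd by less than 2-fold, with a log2 ratio of -0.54 (-0.75 to -0.34).

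At the third CATG from the 3′ end of *Hspb8* (chr5:116409011-116409031, minus strand, 3′ UTR in exon 3) each line listed another form of the tag. The forms differ by C17T, with positions counted from 1 at the 5′ end of the tag and the base of the reference given first, and capitals mark position 17.
*Hspb8*, reference form: catgttaaatttttacCttgc
*Hspb8*, C17T form: catgttaaatttttacTttgc
The reference form had 0 copies in GC-1spg against 10 in GC-2spd, and the C17T form had 21 and 0. These tags were looked at after their values were known. Both forms were summed into *Hspb8* since 1 mismatch was allowed.

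*Hspd1* encodes Hsp60 of the mitochondrial matrix. It had 5912 copies in GC-1spg against 2706 in GC-2spd, 1166 (1136 to 1196) and 572 (551 to 594) TPM, and went from rank 30 to rank 89 of all genes. The ratio was 0.491, a log2 ratio of -1.03 (-1.09 to -0.96), an interval that includes the 2-fold line. All 3 of its exactly matching sense tags were lower in GC-2spd. Tags that also fit its pseudogenes had 74 and 38 copies, a log2 ratio of -0.86 (-1.46 to -0.28). *Hspe1*, which encodes the Hsp10 lid of the Hsp60 chamber, starts on the other strand and overlaps *Hspd1* by 112 bases. The main *Hspe1* tag also fits 1 other annotated gene and had 4358 and 3595 copies, 859 and 761 TPM, with a log2 ratio of -0.18 (-0.24 to -0.11). The intervals of the 2 genes did not overlap. *Hspa9*, the mitochondrial Hsp70, had 2146 and 1202 copies and a log2 ratio of -0.73 (-0.84 to -0.63), so that *Hspd1* made up 73.4% (72.4 to 74.3) and 69.2% (67.8 to 70.7) of the tags of *Hspd1* and *Hspa9*.

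In order of their unambiguous tags in GC-1spg the genes ran *Hsp90ab1*, *Hspd1*, *Hsp90aa1*, *Hspb8*, *Hsph1* and *Dnajb1*, and no neighbours in this order had overlapping Poisson intervals. In GC-2spd the order was *Hsp90ab1*, *Hsp90aa1*, *Hspd1*, *Hsph1*, *Dnajb1*, *Hspa1b* and *Hspb8*. There only the intervals of *Hspa1b* (72.1 to 88.5 TPM) and *Hspb8* (61.3 to 76.4 TPM) overlapped between neighbours. *Hspa8* would lead both orders by its shared tag.

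**Figure D3:**
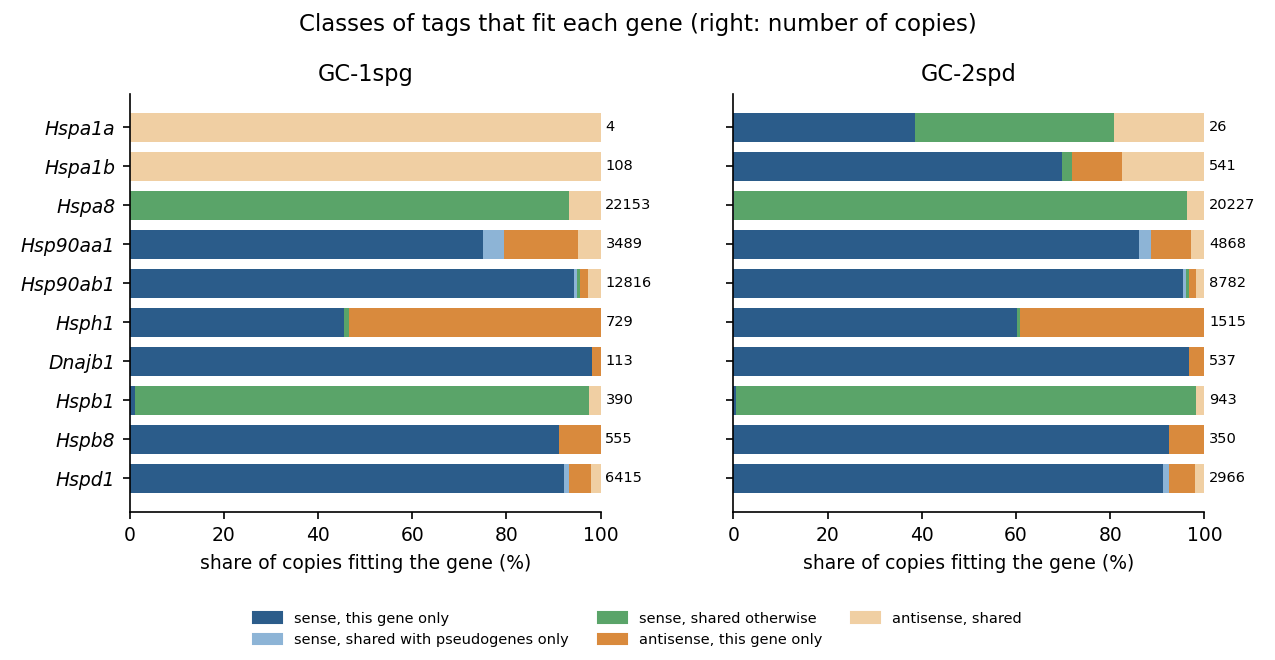
Share of all copies that fit each gene by class of tag, in percent, for GC-1spg (left) and GC-2spd (right), with the number of copies at the right of each bar. Nearly all copies of *Hspa8* and *Hspb1* are sense tags shared with other genes (green), and antisense tags of 1 gene (dark orange) are most frequent in *Hsph1*.

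The position of a tag was not used to choose the genes. For *Hspd1* the CATG nearest to the 3′ end, 90 bases from it, gave 85.0% of its tags in GC-1spg against 85.8% in GC-2spd, and the next site gave 14.3% and 13.4%. *Hsp90ab1* had 98.1% and 96.6% of its copies at its nearest site, and *Hsph1* 93.1% and 91.2%. *Hsp90aa1* instead had 95.3% and 95.7% of its copies at the third site, 594 bases from the annotated end, and 1.03% and 0.764% at the nearest. The main *Dnajb1* tag was also at the third site, 1414 bases from the annotated end, with 72.1% and 77.1% of the copies. In *Hsp90ab1* a tag across exons 4 and 5 had 113 and 166 copies, so its share was 0.934% in GC-1spg and 1.98% in GC-2spd while the gene as a whole was lower in GC-2spd.

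**Figure D4:**
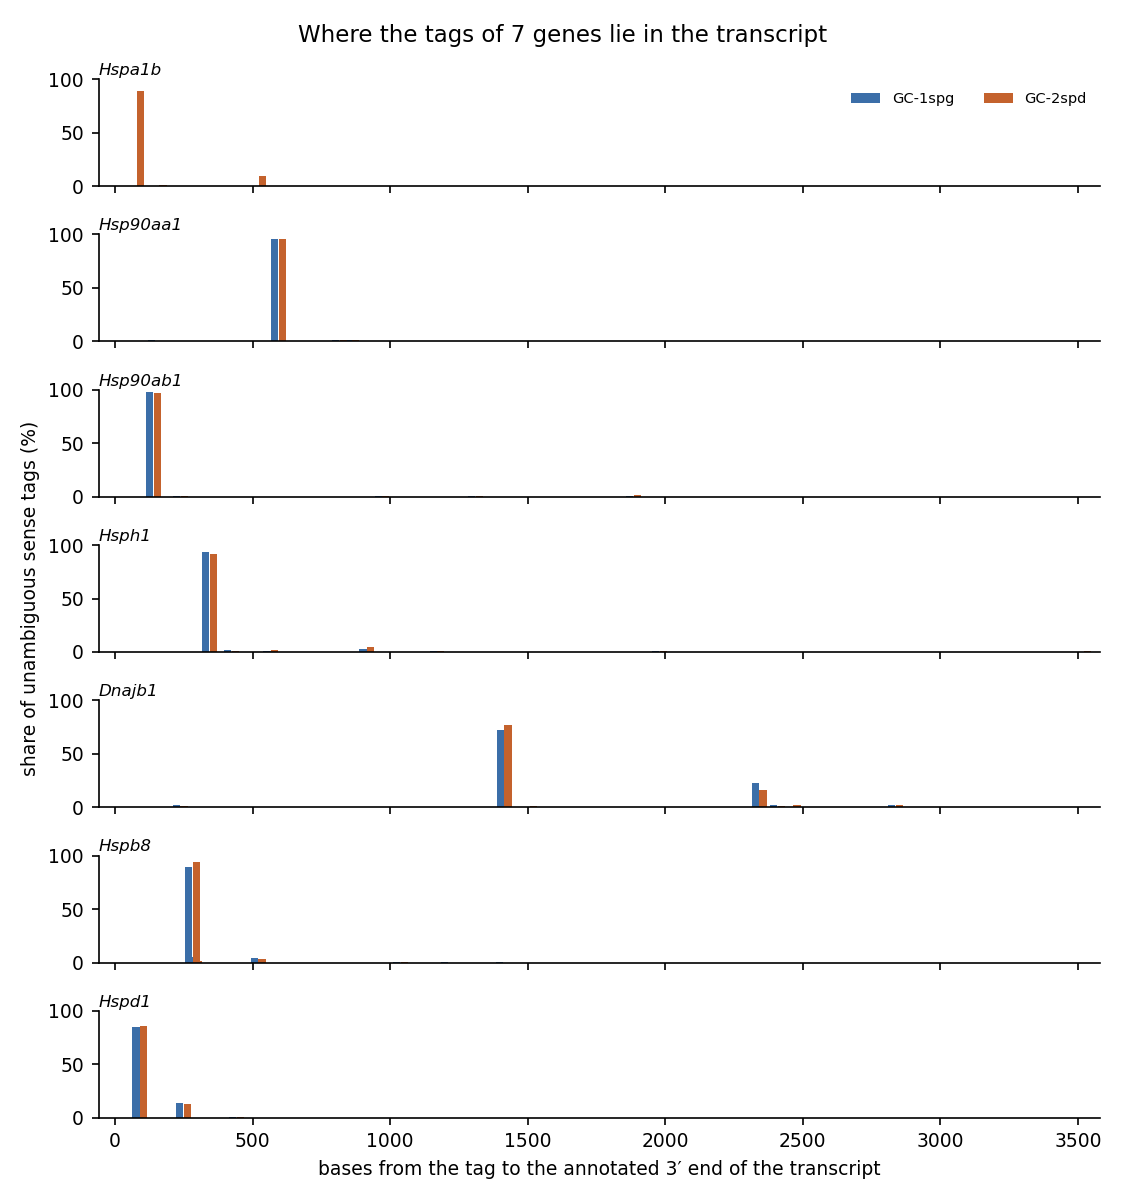
Share of the unambiguous sense tags of each gene at each CATG site, in percent, against the distance in bases from the tag to the annotated 3′ end, for GC-1spg (blue) and GC-2spd (orange), drawn side by side at each site. The main site is the same in both lines for the 6 genes listed in both, and it lies 594 bases from the end in *Hsp90aa1* and 1414 bases from it in *Dnajb1*.

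In the 8 lists of other chaperone genes, 74 of 90 genes had at least 20 tags. Of these, 10 were higher (13.5%, beside 19.1% of all genes) and 2 lower (2.70%, beside 12.8%) in GC-2spd by at least 2-fold, and the median log2 ratio was 0.20 beside 0.19 over all genes. After TMM scaling the counts were 9 and 3. Among the J domain proteins (2 higher, 1 lower and 9 between of 12 genes), *Dnaja2* had 1178 and 3059 copies, a log2 ratio of 1.48 (1.38 to 1.58). *Dnajb4* had 86 and 218 copies, a log2 ratio of 1.44 (1.08 to 1.82), but with the longest transcript of each gene alone it had 17 and 6 and its direction turned (log2 -1.40). *Dnajc8* had 777 and 620 copies, and *Dnajb6* had 417 and 176 copies, a log2 ratio of -1.14 (-1.41 to -0.89). The exchange factors and regulators of Hsp70 held 2 higher genes of 10, *Bag3* with 120 and 265 copies (log2 1.24, 0.93 to 1.57) and *Bag4* with 48 and 110. With the tags of both strands together, each of these 2 genes had a log2 ratio of 0.87 and did not pass 2-fold. At its CATG nearest to the 3′ end alone *Bag4* had 12 and 12 copies, a log2 ratio of 0.10. *St13* and *Bag6*, the most abundant, had ratios of 1.09 and 1.26.

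The list of other small heat shock proteins had 3 genes with at least 20 tags, all higher in GC-2spd, beside 19.1% of all genes tested. It was chosen with earlier results of these data known. *Hspb1* and *Hspb8*, described above, are not in it, and they differed in direction. *Cryab*, which encodes alphaB-crystallin, had 195 and 789 copies, a log2 ratio of 2.12 (1.89 to 2.35). *Hspb6* had 55 and 162 copies and *Hspb2* 4 and 27. *Cryaa* and *Hspb7* had fewer tags and 3 more genes of the list had none. *Hspb11*, which was placed among the regulators of Hsp70 here, had 78 and 77 copies, a log2 ratio of 0.08 (-0.39 to 0.56).

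In the mitochondrial list 3 of 11 genes were higher, *Grpel2* with 73 and 203 copies, *Clpx* with 132 and 281 and *Hscb* with 40 and 75, the last not after TMM scaling. At its CATG nearest to the 3′ end alone *Clpx* had a log2 ratio of 0.98, under 2-fold. The protease *Lonp1* had 779 and 921 copies. The median log2 ratio of the list, which also holds *Hspa9* (-0.73) and *Grpel1* (-0.74), was 0.52. None of 14 Hsp90 co-chaperones passed 2-fold, although *Ppid* came to a log2 ratio of 0.99996, and *Ptges3* (p23) and *Stip1* (Hop) had ratios of 1.37 and 0.926. None of 13 genes of the cytosolic chaperonin TRiC and of prefoldin passed it, with 3114 and 2221 copies of *Cct2* and 2831 and 1610 of *Cct5*. *Hsf1*, the main heat shock factor, had 416 and 365 copies and a log2 ratio of -0.09 (-0.29 to 0.12), and its negative regulator *Hsbp1* had 647 and 448. Chaperones of the endoplasmic reticulum, taken for comparison, had 1 higher gene of 15, *Calr* with 2845 and 7244 copies, while *Hsp90b1*, their Hsp90, had 5462 and 5588.

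**Figure D5:**
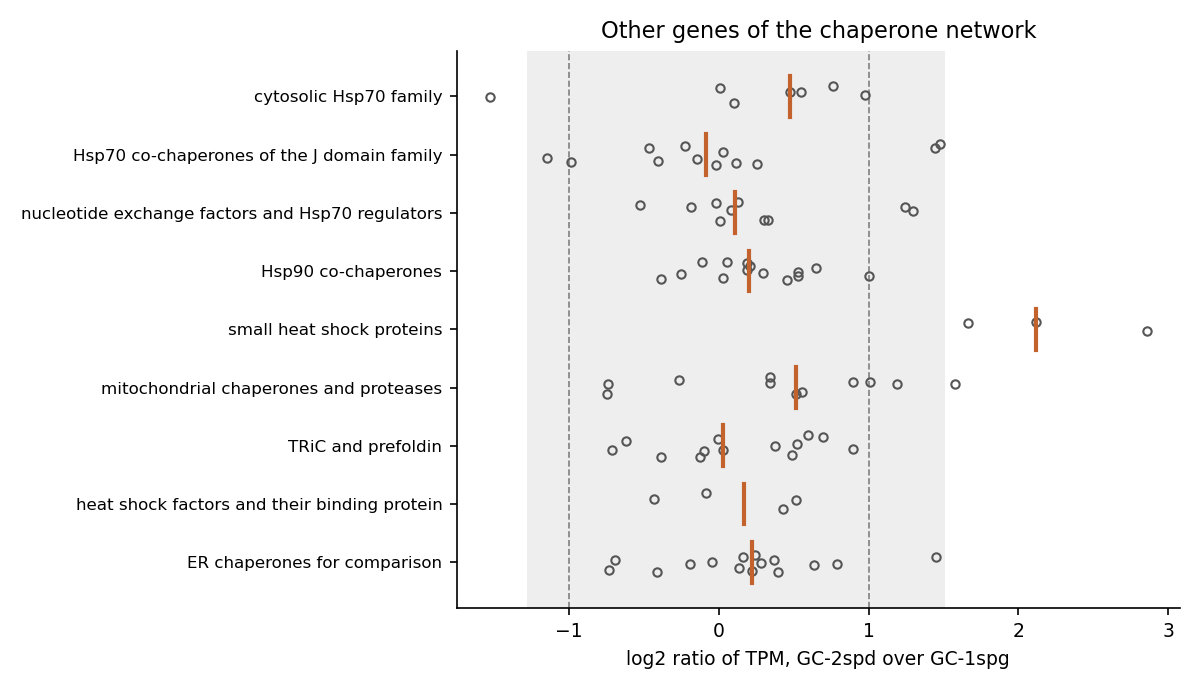
The log2 ratio of TPM, GC-2spd over GC-1spg, of the other chaperone genes with at least 20 tags, 1 circle per gene, by list. Orange bars are the medians, dashed lines mark a 2-fold difference and the shaded band is the 10th to 90th percentile of all genes with at least 20 tags. The 3 genes drawn for the small heat shock protein list, which leaves out *Hspb1* and *Hspb8*, lie at 1.66 or higher. The medians of the other lists lie between -0.08 and 0.52.

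The cytosolic Hsp70 list held 1 lower gene of 7, the meiotic *Hspa2*, with 102 and 33 copies and a log2 ratio of -1.53 (-2.14 to -0.95). *Hspa4l*, an Hsp110 gene known for its expression in the testis, had 197 and 312 copies. *Hspa1l* was not listed in either library. Of 10 germ cell markers chosen here, 9 had no unambiguous sense tag in either library, among them *Ddx4*, *Dazl* and *Kit*, although each has between 2 and 37 tags that fit no other gene. *Uchl1* had 329 and 66 copies. Tags that fit these and other genes equally well had 10 and 109 copies for *Sycp1*, 2 and 0 for *Sycp3* and 0 and 2 for *Dmc1*, and their gene of origin cannot be told. Mesenchymal markers were listed for 6 of 7 genes with 14540 and 7634 copies in sum. *Col1a1* (10465 and 2425), *Fn1* (2351 and 1211) and *Pdgfra* (85 and 74) were lower in GC-2spd. *Vim* (984 and 2897), *Col1a2* (605 and 907) and *Col3a1* (50 and 120) were higher, and *Thy1* was at 0. Without *Col1a1* the sums were 4075 and 5209. Sertoli cell markers gave 683 and 184 copies over 4 of 4 genes, with *Wt1* at 620 and 0 and *Gata4* at 29 and 138. Epithelial markers gave 75 and 0 copies over 2 of 4 genes, *Krt18* (67 and 0) and *Krt8* (8 and 0), with *Epcam* and *Cdh1* at 0, and Leydig cell markers gave 4 and 5 over 2 of 4, *Star* and *Cyp11a1*, with *Insl3* and *Hsd3b1* at 0. Their part in the chaperone values was not tested.

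Promoter windows from 250 bases before to 50 after a gene start were matched for 7 of the 10 genes in RefSeq, build GRCm38.p6. They were searched on both strands for GAANNTTC, the inverted repeat at the core of a heat shock element, which 7.86% of all 32851 windows hold. It was present in a window of 6 of the 7 genes, *Hspa1a*, *Hspa1b*, *Hsph1*, *Hspb1*, *Hspb8* and *Hspd1*, and in none of *Dnajb1*. A gene with several windows was counted if any of them held it, so this count is per gene and not per window. In *Hsph1* and *Hspb8* the motif lay after the gene start. A longer form of 3 units, GAANNTTCNNGAA or TTCNNGAANNTTC, which overlaps it, was found in *Hsph1* and *Hspd1* and in 0.603% of all windows. CCAAT was found in 5 of the 7 genes and 37.4% of windows, and TATAAA in 0 of the 7 and 13.6%. The *Hspd1* window around its annotated gene start (chr1:55088194-55088493) held neither form of the heat shock element. A window further inside the gene held both, and it also covers the annotated start of *Hspe1* on the other strand. Windows of *Hspa1b*, *Hsph1* and *Hspd1* that hold the motif are shown because these genes differ in direction, with GAANNTTC in capitals.
*Hspa1b* (chr17:34959189-34959488, minus strand): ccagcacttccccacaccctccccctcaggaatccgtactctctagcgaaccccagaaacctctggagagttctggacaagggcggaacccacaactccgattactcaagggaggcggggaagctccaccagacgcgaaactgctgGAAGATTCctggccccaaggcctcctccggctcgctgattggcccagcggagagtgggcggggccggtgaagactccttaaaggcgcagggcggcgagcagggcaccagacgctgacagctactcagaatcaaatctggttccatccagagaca
*Hsph1* (chr5:149636266-149636565, minus strand): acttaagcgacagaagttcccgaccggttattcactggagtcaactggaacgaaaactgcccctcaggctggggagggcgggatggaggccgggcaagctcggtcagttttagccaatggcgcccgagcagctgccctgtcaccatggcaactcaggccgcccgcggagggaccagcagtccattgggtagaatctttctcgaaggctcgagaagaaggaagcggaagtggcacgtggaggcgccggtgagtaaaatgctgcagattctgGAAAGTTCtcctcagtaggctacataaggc
*Hspd1* (chr1:55087883-55088182, minus strand): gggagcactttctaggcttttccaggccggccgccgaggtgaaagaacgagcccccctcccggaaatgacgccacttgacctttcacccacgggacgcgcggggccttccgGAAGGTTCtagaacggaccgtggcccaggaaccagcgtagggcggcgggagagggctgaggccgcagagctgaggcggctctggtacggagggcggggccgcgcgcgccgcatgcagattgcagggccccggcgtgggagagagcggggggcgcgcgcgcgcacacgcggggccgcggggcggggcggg
The windows of *Hspa1a* and *Hspa1b* were identical at 296 of 300 bases. In GC-2spd *Hspa1b* had 378 and *Hspa1a* 10 unambiguous copies, counted through different tags. The motif was in windows of genes that were higher (*Hspa1b*, *Hsph1*), between (*Hspb8*) and lower (*Hspd1*, only in the window shown) in GC-2spd. It was absent from the windows of *Dnajb1*, which was higher. Whether the motif bears on these ratios was not tested.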

How the data were processed

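GC-1spg and GC-2spd (ts) were profiled by DGE with 1 library each. The authors deposited, for each tag left after their cleaning, a raw count and a TPM value, and no deposited count is below 2. The counts were used, and TPM were computed from them over all clean tags (5072149 and 4726808). Tags were matched to all CATG+17 tags of the GENCODE M21 transcripts (GRCm38), with at most 1 mismatch after CATG and exact matches first. The database of the authors was not used. Unambiguous sense tags, whose best matches belong to 1 gene, were summed per gene. Intervals are exact at 95% (Poisson for TPM, conditional binomial for ratios, Clopper-Pearson for shares). A gene at 0 was given the one-sided 95% Poisson limit for 1 unlisted copy of each tag seen in the other library. edgeR's quasi-likelihood test needs replicates and could not be fitted. The Audic-Claverie test, which compares the reads of these libraries and not the lines, was an alternative only. The scripts were tested on simulated data. The genes and lists were chosen with earlier results of these data known. Named genes are the 10 genes, and from each list every gene past 2-fold and the 2 with the most tags, besides those compared as partners. The tools were edgeR 4.0.16 in R 4.3.3 for TMM, and scipy 1.17.1, pandas 2.3.3, numpy 2.4.6 and matplotlib 3.10.9 in Python 3.11.15. The alternatives were other matching rules (exact, nearest site, longest transcript, no pseudogenes, sense preferred, both strands, shared tags split), scalings, minimum counts and 0.5 tags added.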

Additional observations from a re-analysis of the deposited data

Results flagged for a closer look

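Tags on the antisense strand stand outside the counts above, and those that fit 1 gene only are given here. *Hsph1* had 389 copies in GC-1spg against 592 in GC-2spd, 54.0% (50.2 to 57.6) and 39.3% (36.8 to 41.8) of its tags on both strands, beside 12.2% and 10.9% over all genes. The tag with most of them is shown here, with CATG in capitals, at chr5:149617127-149617147 on the plus strand, opposite the 3′ UTR in exon 18, with 302 and 494 copies.
*Hsph1*, antisense: CATGcggaaatgaagagcaaa
*Hsp90aa1* had 548 and 407 antisense copies, 17.3% and 8.86% of its tags. *Hsp90ab1* had 214 and 143, *Hspd1* 296 and 163, and *Hspb8* 49 and 26. *Hspa1b* had 0 antisense copies in GC-1spg against 58 in GC-2spd, *Dnajb1* had 2 and 17, and *Hspa8* had 10 and 0. Of all 1508 and 1406 antisense copies of the 10 genes, 1448 and 1361 began at a CATG where a sense tag of the same gene also began. The copies on the 2 strands differed at such sites in both directions. At the CATG of the *Hsph1* tag shown, the sense tag had 2 and 16 copies. At the main *Hsp90ab1* site the antisense tag had 108 and 69 copies against 11707 and 8008 of the sense tag. No gene is annotated opposite *Hsph1*. The gene nearest to it, *Wdr95*, lies 2392 bases beyond its 3′ end on the other strand and had no unambiguous sense tag.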

How the results depend on the processing

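The numbers of the 10 genes that were at least 2-fold higher ranged from 2 to 4 over 13 alternatives, and 1 gene was lower in each. Leaving out a library was not possible. No paired analysis was possible because each cell line has 1 library. With a minimum of 100 tags, 1178 of all genes were higher and 623 lower, as fewer genes were tested. No other count moved by over 1.5 times. Among the 10 genes, 17 of 123 values moved beyond their counting interval. These values were log2 ratios and, for exact matches only, shares of tags at the main site. None of the 4 called genes changed direction. Of the 13 called genes of the other chaperone lists, *Dnajb4* turned from higher to lower (-1.40) with the longest transcript of each gene, 1 of 143 values. The Audic-Claverie test called the same 4 of the 10 genes. With the nearest CATG site only, the log2 ratio of *Dnajb1* was 1.42 from 7 tags. *Hspd1* ran from -1.20 to -1.01 over 11 alternatives. *Hspa8* depends on how shared tags are treated, because its main tag is shared.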
